A study of Mus musculus with 12 samples.

Results

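The 10 genes described here encode the enzymes that build purine nucleotides from phosphoribosyl pyrophosphate (PRPP), together with 2 enzymes that recover adenine and adenosine. They were chosen by symbol: Prps1, Prps2, Ppat, Gart, Pfas, Paics, Adsl, Atic, Aprt and Adk. Each symbol matched 1 of the 51826 gene identifiers of the forelimb data and 1 of the 55401 of the culture data. The study asked what deleting Impdh2, an enzyme of guanine nucleotide synthesis downstream of this pathway, does in limb development and in osteoclast formation. RNA sequencing gave 12 mouse libraries in 6 groups of 2. Forelimbs were taken at E12.5, a stage of embryonic limb outgrowth, either wild type (WT) or Prx-cKO, in which Impdh2 was deleted through Prx in limb mesenchymal progenitors, so that blood, muscle, endothelium and ectoderm of the limb were not the target. Cultures came from bone marrow of WT mice or of LysM-cKO mice, in which Impdh2 was deleted in the myeloid lineage. All marrow cultures spent 3 days in medium with supernatant of L929 cells, a source of the macrophage growth factor M-CSF equivalent to 20 ng/ml. The protocol then reseeds the cells and adds 40 ng/ml of RANKL, the cytokine that induces osteoclasts. The titles R40D3 and R0D3 are used here as group names, because the labels do not spell them out. Whether WT animals carried floxed alleles or Cre, whether animals were pooled, and the age of the marrow donors are not given in the sources used here. Nothing in the labels says that replicates came from separate animals, so the p-values measure only the spread between these libraries.

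De novo purine synthesis starts with PRPP, which Prps1 and Prps2 make from ribose 5-phosphate. Ppat commits PRPP to the pathway, and Gart, Pfas, Paics, Adsl and Atic then assemble inosine monophosphate (IMP) in successive steps, with Gart, Paics and Atic each carrying more than one activity in a single protein. IMP is the branch point: Impdh2 leads towards guanine nucleotides, while adenylosuccinate synthase and Adsl lead towards adenine nucleotides. Aprt salvages adenine with PRPP, and Adk phosphorylates adenosine, so both feed the adenine pool without the de novo route. Proliferating tissue is known for high use of the de novo route.

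Forelimb libraries held 28892215 to 69466572 counts and culture libraries 16009146 to 19221865. Impdh2, the deleted gene, was at 260 and 272 CPM (read counts scaled to a common library size) in WT forelimbs and at 170 and 199 CPM in Prx-cKO forelimbs. In the cultures it was at 22.3 to 28.2 CPM in the 4 WT libraries and at 7.03 to 8.38 CPM in the 4 LysM-cKO libraries. Every knockout library thus held less Impdh2 than every WT library of its tissue, with a partial loss in the forelimb. All 7 limb mesenchyme markers were detected in the forelimb. In the cultures, 9 osteoclast markers summed to 313 to 455 CPM at R0D3 and to 12907 to 37999 CPM at R40D3, so the cell type label "osteoclast" had its markers at high level only at R40D3. All 6 macrophage markers were detected in both culture groups. The 6 stromal fibroblast markers summed to 485 and 411 CPM in the second LysM-cKO replicates of R0D3 and R40D3, against 1160 to 1551 CPM in the other 6 culture libraries.

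Promoter windows of 300 bases, 250 before and 50 after the annotated start, were read from RefSeq on GRCm38.p6 for 9 of the 10 genes; none was held for Pfas. Ppat (chromosome 5, 76913249 to 76951578, minus strand) and Paics (chromosome 5, 76951307 to 76967509, plus strand) lie head to head. Their annotated starts are 271 bp apart, and their outermost exons overlap by 272 bases on opposite strands. Their windows are shown because these 2 enzymes of one pathway start side by side. The windows of Prps1 (chromosome X, 140456613 to 140476140, plus strand) and Prps2 (chromosome X, 167346322 to 167382749, minus strand) are shown because the 2 isozymes had opposite orders in the 2 tissues. The window of Aprt (chromosome 8, 122574635 to 122576909, minus strand) is shown because Aprt was called between R40D3 and R0D3 in both genotypes. In each line the sequence runs 5′ to 3′ on the gene's strand, and capitals mark matches on either strand to an E-box (CACGTG), a GC box (GGGCGG) or a CCAAT box (CCAAT).
Ppat, chr5:76951529-76951828, minus strand: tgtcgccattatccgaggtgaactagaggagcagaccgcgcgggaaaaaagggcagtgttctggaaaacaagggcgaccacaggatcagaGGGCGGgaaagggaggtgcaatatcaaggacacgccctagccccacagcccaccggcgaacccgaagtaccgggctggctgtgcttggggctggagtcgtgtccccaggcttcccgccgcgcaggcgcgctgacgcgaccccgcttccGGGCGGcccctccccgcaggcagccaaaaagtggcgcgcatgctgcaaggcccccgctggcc
Paics, chr5:76951052-76951351, plus strand: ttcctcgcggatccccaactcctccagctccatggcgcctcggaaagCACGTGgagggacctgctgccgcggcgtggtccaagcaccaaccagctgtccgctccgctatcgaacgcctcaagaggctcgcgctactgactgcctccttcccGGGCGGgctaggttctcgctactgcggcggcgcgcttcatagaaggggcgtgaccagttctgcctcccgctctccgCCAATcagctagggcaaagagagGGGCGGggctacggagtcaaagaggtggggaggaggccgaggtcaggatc
Prps1, chrX:140456353-140456652, plus strand: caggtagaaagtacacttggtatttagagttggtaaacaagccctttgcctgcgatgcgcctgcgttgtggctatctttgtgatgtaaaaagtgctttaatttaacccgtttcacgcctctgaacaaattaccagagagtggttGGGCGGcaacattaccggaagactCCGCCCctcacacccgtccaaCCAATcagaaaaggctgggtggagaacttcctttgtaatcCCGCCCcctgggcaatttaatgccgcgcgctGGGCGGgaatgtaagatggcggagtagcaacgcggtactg
Prps2, chrX:167382700-167382999, minus strand: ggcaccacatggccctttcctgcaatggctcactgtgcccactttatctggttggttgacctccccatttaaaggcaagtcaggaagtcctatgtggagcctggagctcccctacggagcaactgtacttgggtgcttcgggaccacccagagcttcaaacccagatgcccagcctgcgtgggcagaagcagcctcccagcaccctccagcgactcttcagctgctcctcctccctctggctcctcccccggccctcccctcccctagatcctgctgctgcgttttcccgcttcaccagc
Aprt, chr8:122576858-122577157, minus strand: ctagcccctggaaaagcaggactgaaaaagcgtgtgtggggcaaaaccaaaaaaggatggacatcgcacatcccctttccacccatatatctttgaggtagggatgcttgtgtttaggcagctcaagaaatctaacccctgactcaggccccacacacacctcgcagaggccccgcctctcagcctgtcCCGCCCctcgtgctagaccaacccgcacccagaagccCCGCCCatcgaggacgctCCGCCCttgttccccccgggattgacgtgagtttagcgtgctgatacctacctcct

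An E-box lay in the windows of Paics, 203 bases before the start, and of Atic, 7 bases before it; 7.15% of the 32851 mouse windows of this length held one. A GC box was found for 8 of the 9 genes with a window, all but Prps2, against 35.7% of all windows. CCAAT was found for 5 of 9 genes, against 37.4% of all windows. No window of these genes held TATAAA (13.6% of all windows) or the amino acid response core TGATGNAAT (0.965% of all windows). GC content ran from 51.3% (Prps1) to 75% (the second of 2 Adk windows), and the median of all windows was 52.7%. The matches describe these letters and show no binding.

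**Figure D1:**
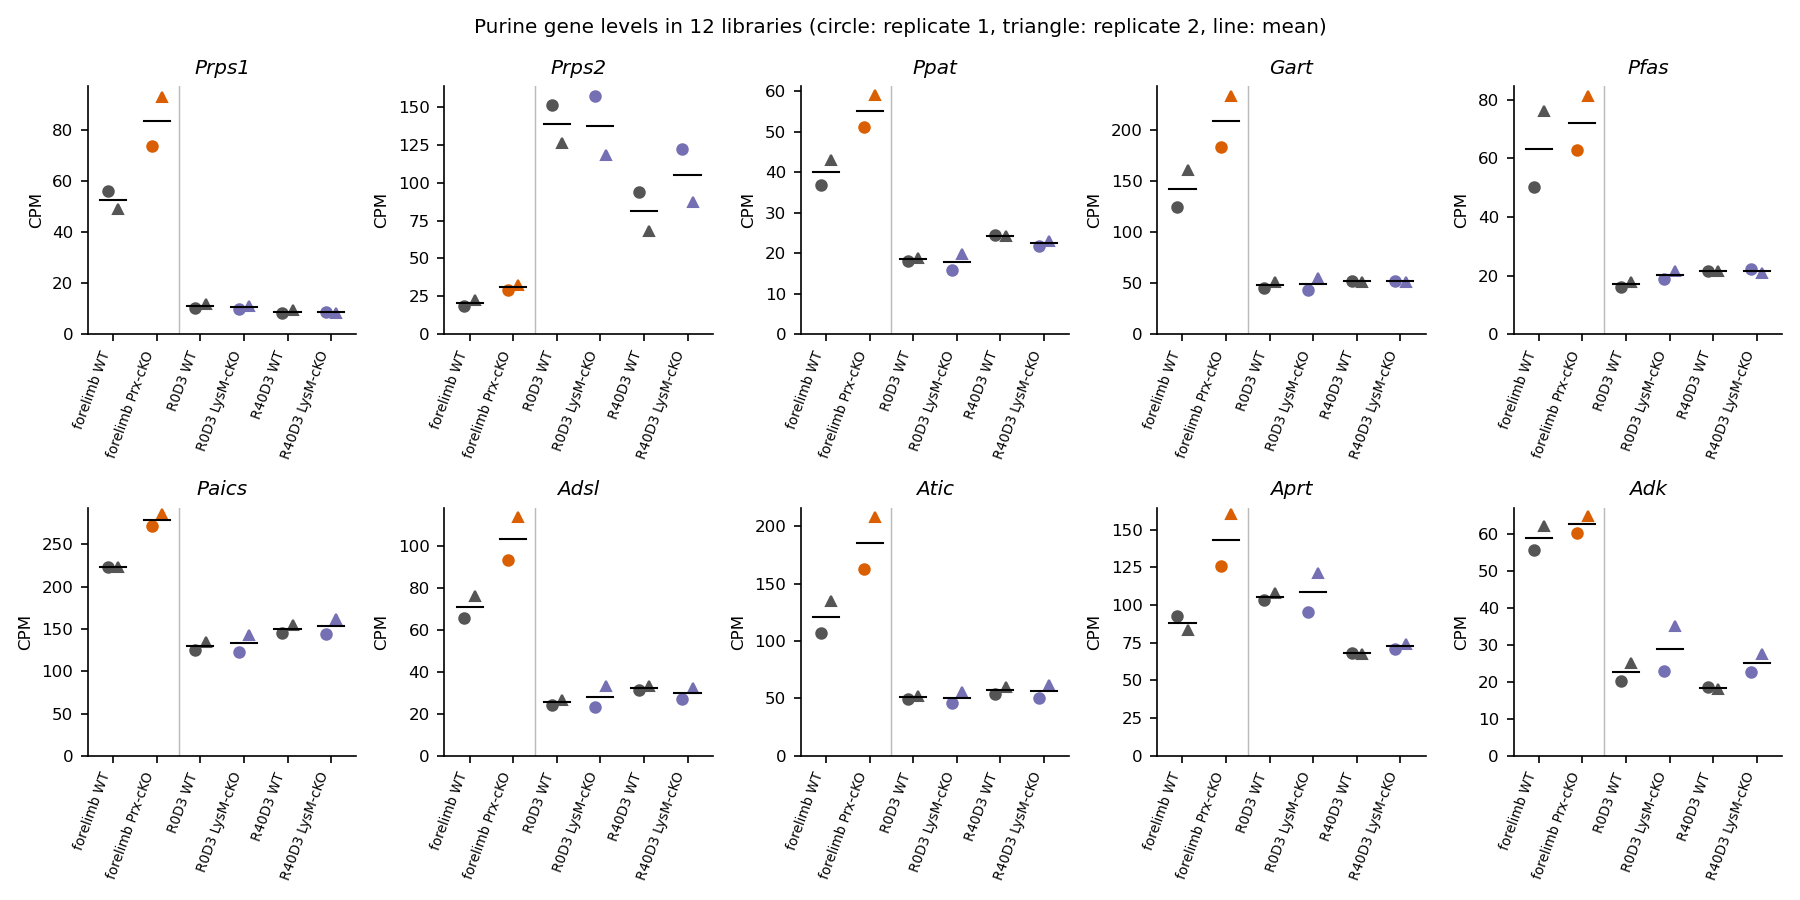
Normalised level (CPM, linear axes starting at 0, a separate axis for each gene) of the 10 genes in the 12 libraries; circles are replicate 1, triangles replicate 2 and lines the mean of both. Prps1 sits at 49.2 CPM or higher in the forelimb and at 11.8 CPM or lower in the cultures, and Prps2 has the opposite order.

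All 10 genes passed the filter on low counts in both tissues. They held 803 (Prps2) to 15999 (Paics) reads per library in the forelimb and 136 (Prps1) to 2780 (Paics) in the cultures. Because the libraries are from bulk tissue or culture, fewer cells of a type and less RNA per cell cannot be told apart. Levels of different genes were compared as CPM per kilobase of the main protein-coding transcript. In WT forelimbs Aprt stood highest at 103 ± 7.66 CPM per kb (SD, n = 2), followed by Paics at 89.8 ± 0.00840. Atic (42.6 ± 7.01) and Gart (40.5 ± 7.27) came next, and their libraries overlapped. Adk (33.1), Prps1 (26.8) and Adsl (19.1) followed in that order without overlap. Ppat (10.0), the enzyme of the committed step, and Pfas (9.92) overlapped, and Prps2 was lowest at 5.63 CPM per kb.

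In R0D3 WT cultures Aprt again led, at 125 ± 3.94 CPM per kb (SD, n = 2), and Paics followed at 52.4 ± 2.83. The third place went to Prps2 at 37.5 ± 4.81 CPM per kb, ahead of Atic (17.9), Gart (13.7), Adk (12.8) and Adsl (6.85). Only Gart and Adk overlapped as neighbours. Prps1 (5.60), Ppat (4.63) and Pfas (2.67) stood at the lower end. At R40D3 in WT, Aprt was at 80.0, Paics at 60.5, Prps2 at 21.9 and Atic at 20.1 CPM per kb, of which Prps2 and Atic overlapped. The length matters for these orders: with all exons merged in place of the main transcript, forelimb Paics (71.0 CPM per kb) exceeded Aprt (54.4) and Adk stood at 6.92. That alternative was chosen after the data were seen.

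**Figure D2:**
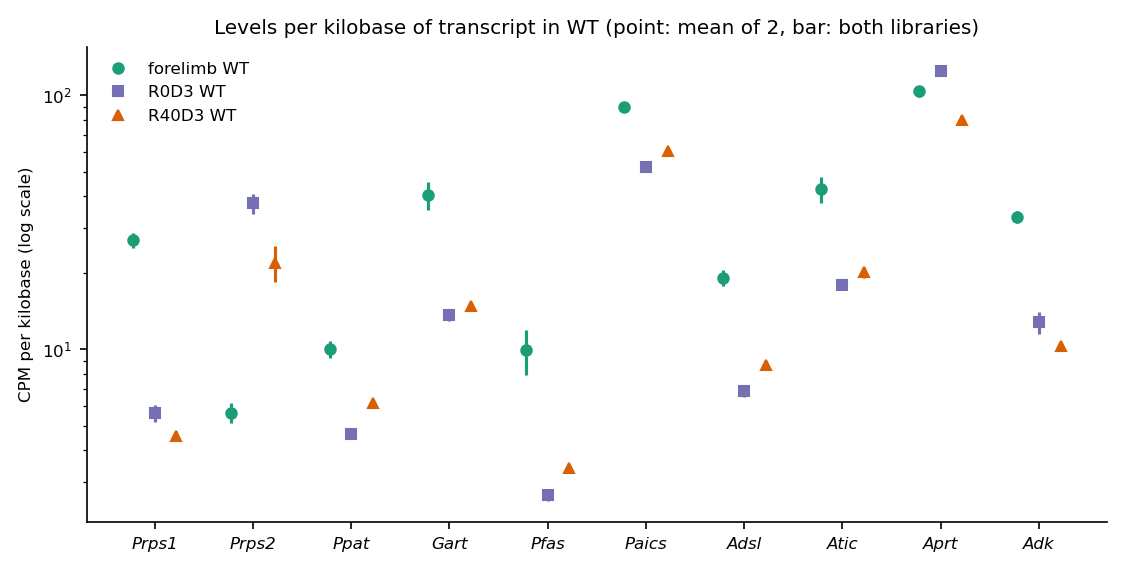
Level per kilobase of main transcript (CPM per kb, log axis) of the 10 genes in the 3 WT groups; points are means of 2 libraries and bars span both. Aprt and Paics lead in each group, and the 2 PRPP synthetase genes change places between forelimb (green circles) and cultures (purple squares and orange triangles).

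The 2 PRPP synthetase genes divided by tissue. Prps1 was at 56.2 and 49.2 CPM in WT forelimbs and at 10.2 and 11.8 CPM in R0D3 WT cultures. Prps2 was at 19.0 and 22.7 CPM in WT forelimbs and at 151 and 126 CPM in R0D3 WT cultures. The groups did not overlap for either gene, and the orders were opposite. Per kilobase, Prps1 exceeded Prps2 by 4.09 to 5.57 times in WT forelimbs and by 4.74 and 5.38 times in Prx-cKO forelimbs. In each of the 8 culture libraries Prps2 exceeded Prps1, by 3.88 to 8.28 times. Prps1 transcripts share 93.2% identity over 1478 bases with the Prps1l3 gene, which held 8431 forelimb and 3100 culture counts in all, so the division of reads between these 2 genes is uncertain.

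The other genes had higher CPM in the forelimb, apart from Aprt. WT forelimb means exceeded R0D3 WT means 3.71-fold for Pfas, 2.96-fold for Gart, 2.79-fold for Adsl, 2.60-fold for Adk, 2.38-fold for Atic, 2.17-fold for Ppat and 1.71-fold for Paics. Aprt, the adenine salvage gene, was at 0.831 of its R0D3 WT mean. No gene of the 10 overlapped between these 2 groups. The share of all genes without overlap between the tissues was not taken, so this count has no background to be read against. The 2 tissues were normalised separately, so these ratios carry no test. The 8 cycling-cell markers also differed, with sums of 2374 and 2869 CPM in WT forelimbs and 372 and 491 CPM in R0D3 WT cultures; their part in the ratios was not tested.

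In the forelimb, the comparison of Prx-cKO with WT asked how the pathway upstream of the deleted enzyme stood in limbs that had lost part of their Impdh2 transcript. All 10 genes had a higher mean in Prx-cKO, as did 47.2% of all genes, with fitted log2 fold changes from 0.09 (Adk) to 0.70 (Aprt). In edgeR's quasi-likelihood test none passed a Benjamini-Hochberg adjusted p of 0.05, nor did any of the 19987 genes tested (0%). At an unadjusted p under 0.05 there were 7 of the 10, against 10.5% of all genes in either direction and 5.87% of all genes as higher. DESeq2 called none of the 10, and 301 genes overall. The 2 groups did not overlap for 8 of the 10 genes, all but Pfas and Adk, and 22.2% of all genes were higher without overlap. The median log2 fold change of the 10 was 0.55, beside -0.03 for all genes tested.

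Among the PRPP synthetases, Prps1 gave 56.2 and 49.2 CPM in WT versus 73.7 and 93.0 CPM in Prx-cKO. Both Prx-cKO libraries lay above both WT libraries, and the fitted change was 1.58-fold (log2 0.66, SE 0.18, adjusted p = 0.44). Prps2 gave 19.0 and 22.7 CPM in WT versus 29.3 and 32.5 CPM in Prx-cKO, again without overlap (1.48-fold, log2 0.57, SE 0.19, adjusted p = 0.46). Both genes are X-linked, and each genotype held 1 library with high Xist and no Ddx3y counts and 1 with the reverse. Between the high-Xist libraries, Prx-cKO exceeded WT by 0.73 (Prps1) and 0.78 (Prps2) on the log2 scale, and between the low-Xist libraries by 0.58 and 0.37.

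Of the 6 enzymes that take PRPP to IMP, 5 had Prx-cKO libraries wholly above WT. Ppat, the committed step, gave 36.9 and 43.0 CPM in WT versus 51.1 and 59.1 CPM in Prx-cKO (log2 0.46, SE 0.17, adjusted p = 0.475). Gart, which catalyses 3 steps including the first formyl transfer, was at 124 and 161 CPM against 183 and 233 CPM (log2 0.55, SE 0.21, adjusted p = 0.475). The gap between groups for Gart was smaller than the spread within either. Pfas, which adds the second glutamine nitrogen, gave 50.4 and 76.0 CPM in WT versus 62.8 and 81.4 CPM in Prx-cKO. These overlapped, and Pfas had the widest interval of the set (log2 0.19, 95% interval -0.46 to 0.84).

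Paics, which carboxylates the ring precursor and joins aspartate to it, gave 223 CPM in both WT libraries versus 272 and 285 CPM in Prx-cKO (1.25-fold, log2 0.32, SE 0.14, adjusted p = 0.499). It had the closest WT replicates of the 10. Adsl, which releases fumarate here and again on the way to AMP, gave 65.7 and 76.0 CPM in WT versus 93.3 and 114 CPM in Prx-cKO (log2 0.55, SE 0.18, adjusted p = 0.452). Atic, which closes the ring to IMP, gave 107 and 135 CPM in WT versus 163 and 208 CPM in Prx-cKO (1.53-fold, log2 0.62, SE 0.20, adjusted p = 0.457). In both, the lower Prx-cKO library exceeded the higher WT library.

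The 2 salvage genes differed in their values. Aprt gave 92.5 and 83.3 CPM in WT versus 126 and 160 CPM in Prx-cKO, the largest fitted change of the 10 (1.63-fold, log2 0.70, SE 0.18, adjusted p = 0.416). Adk gave 55.9 and 62.2 CPM in WT versus 60.5 and 64.9 CPM in Prx-cKO, with overlap, and its 95% interval ran from -0.30 to 0.48 on the log2 scale. Of all genes tested, 93.4% had a lower fold change than Aprt and 60.8% a lower one than Adk.

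**Figure D3:**
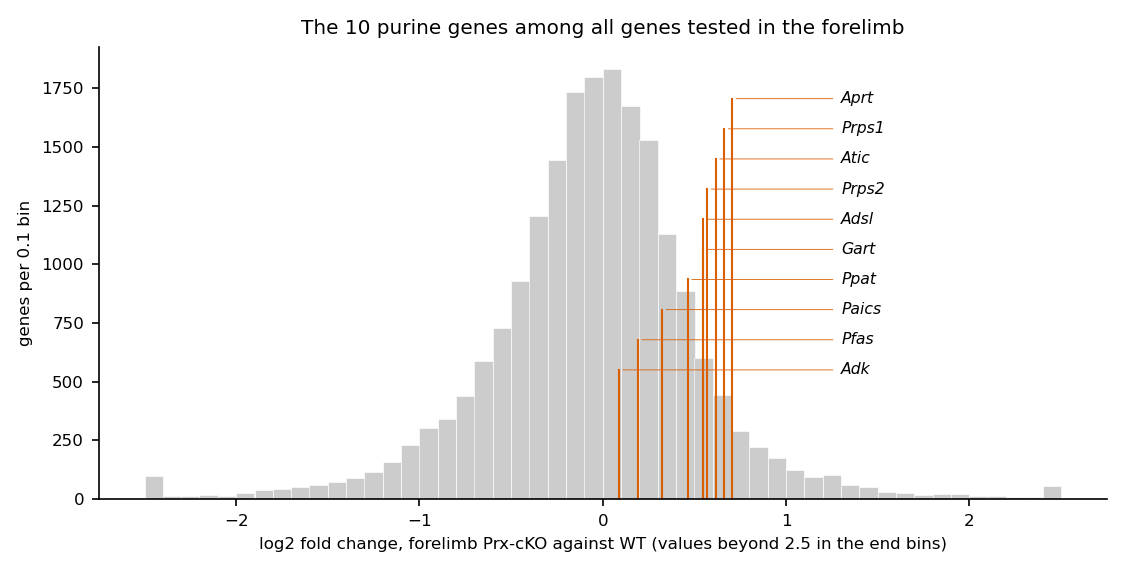
Fitted log2 fold changes, Prx-cKO against WT forelimb (horizontal axis), of all 19987 genes as counts per 0.1-wide bin (grey bars, end bins hold values beyond 2.5), with the 10 purine genes as orange lines. The height of a line carries no value and only separates the names. All 10 lines lie above 0, from Adk at 0.09 to Aprt at 0.70.

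Single libraries moved these values. The median of the 10 was 0.37 when WT replicate 1 was left out and 0.67 when Prx-cKO replicate 1 was left out. Within the 2 high-Xist libraries the median difference was 0.75, and within the 2 low-Xist libraries 0.28. The same 8 of the 10 genes were higher in Prx-cKO in both pairs. Pfas and Adk were higher between the high-Xist libraries (0.69 and 0.22) and lower between the low-Xist libraries (-0.28 and -0.04). Because these 8 genes did not overlap between the groups, any pairing of the libraries gives them that direction. Marker sums moved between the same groups. The 8 cycling-cell markers summed to 2374 and 2869 CPM in WT and to 2850 and 3279 CPM in Prx-cKO, with overlap. Singly, Ccnb1, Mcm2, Mcm5, Pcna and Rrm2 were higher in Prx-cKO without overlap, where 22.2% of all genes were. Rrm2, for example, gave 232 and 228 CPM in WT versus 335 and 401 CPM in Prx-cKO. Mki67, Top2a and Cdk1 overlapped. The 5 skeletal muscle markers summed to 235 CPM in both WT libraries and to 702 and 349 CPM in Prx-cKO, the 4 endothelial markers to 107 and 113 against 144 and 148 CPM, and the 5 myeloid markers to 20.2 and 19.3 against 40.8 and 37.2 CPM. The 7 limb mesenchyme markers summed to 1613 and 1868 CPM in WT and to 1130 and 1174 CPM in Prx-cKO, and the 4 chondrogenic markers to 615 and 658 against 265 and 210 CPM. The mesenchyme markers did not all move with their sum. Prrx1, Tbx5, Pdgfra and Hoxd13 were lower without overlap, as were 4206 of all 19987 genes. Twist1 and Msx1 overlapped. Msx2 was higher without overlap, at 67.6 and 66.8 CPM in WT versus 77.4 and 80.3 CPM in Prx-cKO. No marker of these lists was at 0 in the forelimb. Their part in the purine gene values was not tested.

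The close neighbours of Gart and Adk had lower fitted values in Prx-cKO, and neither was called. Son, which starts 554 bp from Gart on the opposite strand, gave 245 and 489 CPM in WT versus 271 and 327 CPM in Prx-cKO (log2 -0.30, SE 0.35, adjusted p = 0.803). Ap3m1, which starts 66 bp from Adk, was at 142 and 122 CPM against 122 and 108 CPM (log2 -0.20, SE 0.16, adjusted p = 0.696). Reads in the 1014 exonic bases that Gart shares with the antisense gene Gm15964, and in the 272 bases shared by Ppat and Paics, may have been assigned to either gene, since the use of strand in counting is not given in the sources used here. Gm15964 held 1185 forelimb counts in all.

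Between LysM-cKO and WT cultures no gene of the 10 passed the test, at R40D3 or at R0D3. At R40D3, none of the 10 was called and none had an unadjusted p under 0.05, by edgeR's test or as a call by DESeq2. In that comparison 2 of 14030 genes (0.0143%) were called and 7.47% had an unadjusted p under 0.05. Fitted log2 fold changes ran from -0.12 (Ppat) to 0.45 (Adk), with a median of -0.003. The groups did not overlap for Aprt and Adk, which were higher (19.7% of all genes were higher without overlap), or for Ppat, which was lower (18.9% of all genes). Adk gave 18.7 and 18.1 CPM in WT versus 22.7 and 27.5 CPM in LysM-cKO (log2 0.45, SE 0.21, adjusted p = 0.648). Ppat gave 24.5 and 24.2 CPM in WT versus 21.9 and 23.0 CPM in LysM-cKO (log2 -0.12, SE 0.13, adjusted p = 0.805).

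The intervals limit how large a difference could be missed. For the 6 enzymes from Ppat to Atic at R40D3, the 95% intervals lay between 0.694-fold and 1.23-fold. Prps2 gave 94.0 and 68.2 CPM in WT versus 122 and 87.5 CPM in LysM-cKO, with an interval of 0.899-fold to 1.86-fold. Within replicate numbers, 5 of the 10 genes differed in opposite directions in replicates 1 and 2. Marker sums differed between the same groups: the 9 osteoclast markers summed to 25774 and 37999 CPM in WT and to 12907 and 24254 CPM in LysM-cKO, and the 8 cycling-cell markers to 266 and 243 against 277 and 449 CPM. Neither sum overlapped, but single markers did. Among osteoclast markers, Acp5 and Dcstamp overlapped. Of the cycling-cell markers, Mki67, Top2a and Cdk1 were higher in LysM-cKO without overlap, where 19.7% of all genes were. Ccnb1, Mcm2, Mcm5, Pcna and Rrm2 overlapped. None of these markers was at 0, and their part in the purine gene values was not tested.

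At R0D3, again none of the 10 was called and none had an unadjusted p under 0.05, and DESeq2 called none. Of all genes, 2 of 14030 (0.0143%) were called and 4.42% had an unadjusted p under 0.05. The median log2 fold change of the 10 was 0.03. Pfas gave 16.1 and 17.9 CPM in WT versus 19.0 and 21.5 CPM in LysM-cKO, the only one of the 10 without overlap (log2 0.25, SE 0.12, adjusted p = 0.997), where 17.5% of all genes were higher without overlap. Adk gave 20.4 and 25.1 CPM in WT versus 23.1 and 35.0 CPM in LysM-cKO, with overlap. The remaining 8 genes had fitted values from -0.06 to 0.15. The 8 cycling-cell markers summed to 467 and 944 CPM in the LysM-cKO libraries and to 372 and 491 CPM in WT. All of the 10 genes but Prps2 were higher in the library with 944 CPM than in the other LysM-cKO library. The library with 944 CPM also had the lower sum of stromal fibroblast markers (485 against 1520 CPM). The part of cycling or stromal cells in these values was not tested.

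The genotype effects at R40D3 and R0D3 were compared by the interaction term. None of the 10 genes and none of 14030 (0%) was called by edgeR or by DESeq2, and none of the 10 had an unadjusted p under 0.05, against 1.77% of all genes. The differences of effects ran from -0.26 (Adsl) to 0.38 (Prps2) on the log2 scale. For Prps2 the 95% interval was 0.782-fold to 2.18-fold.

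The largest fitted differences of these genes among cultures were between R40D3 and R0D3. In WT, Aprt was at 103 and 108 CPM at R0D3 and at 68.3 and 67.6 CPM at R40D3. It fell to 0.643 of its R0D3 level (log2 -0.64, SE 0.12, adjusted p = 0.0106). In this fit, without a block for the replicate number, Aprt was the only gene of the 10 called. Of 14030 genes, 16.9% were called and 5.52% were called as lower. The 2 replicates of each group were close, and the groups did not overlap. The call was lost, with a log2 fold change from -0.67 to -0.61, without R0D3 replicate 1 (adjusted p = 0.0623), R0D3 replicate 2 (0.0785) or R40D3 replicate 2 (0.0673), each of which leaves 1 library in a group.

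Prps2 was at 151 and 126 CPM at R0D3 and at 94.0 and 68.2 CPM at R40D3 in WT. Both replicates were lower at R40D3 by a similar amount (log2 -0.77, SE 0.22, adjusted p = 0.0551), and with the replicate number as a block the adjusted p was 0.000136. It was also called by DESeq2 (0.0036) and in a fit of the 4 WT libraries alone (0.0189). Prps1 was at 10.2 and 11.8 CPM against 8.52 and 9.34 CPM (log2 -0.30, adjusted p = 0.233). Adk was at 20.4 and 25.1 CPM against 18.7 and 18.1 CPM (log2 -0.30, adjusted p = 0.405). For these genes, as for Aprt, both R40D3 libraries lay below both R0D3 libraries, and 29.2% of all genes were lower without overlap.

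The 6 enzymes from Ppat to Atic stood the other way. All 6 were higher at R40D3 in WT without overlap between the groups, where 32.9% of all genes were higher without overlap. None of the 6 passed the adjusted test in the fit of all 8 culture libraries without the block; in a fit of the 4 WT libraries alone Ppat did (adjusted p = 0.0488). Ppat was at 18.0 and 18.9 CPM at R0D3 and at 24.5 and 24.2 CPM at R40D3 (1.32-fold, log2 0.40, SE 0.13, adjusted p = 0.0759; 0.0277 with the replicate block). Pfas was at 16.1 and 17.9 CPM against 21.7 and 21.6 CPM (1.27-fold, log2 0.35, SE 0.12, adjusted p = 0.0911; 0.0479 with the block). Paics, the neighbour of Ppat, was at 125 and 135 CPM against 145 and 155 CPM (1.15-fold, log2 0.21, SE 0.11, adjusted p = 0.252; 0.0493 with the block). Among the 6, Ppat had the largest fitted value.

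Adsl was at 24.1 and 26.7 CPM at R0D3 and at 31.3 and 33.3 CPM at R40D3 (log2 0.35, SE 0.18, adjusted p = 0.245). Atic was at 49.6 and 52.2 CPM against 54.2 and 60.0 CPM (log2 0.17, SE 0.13, adjusted p = 0.472), and Gart at 45.5 and 50.7 CPM against 52.5 and 51.4 CPM (log2 0.11, SE 0.12, adjusted p = 0.605). With the block, 5 of the 10 genes were called, Aprt and Prps2 as lower and Ppat, Pfas and Paics as higher, among 3977 called genes. Without it, 4 of the 10 had an unadjusted p under 0.05, against 30.3% of all genes.

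**Figure D4:**
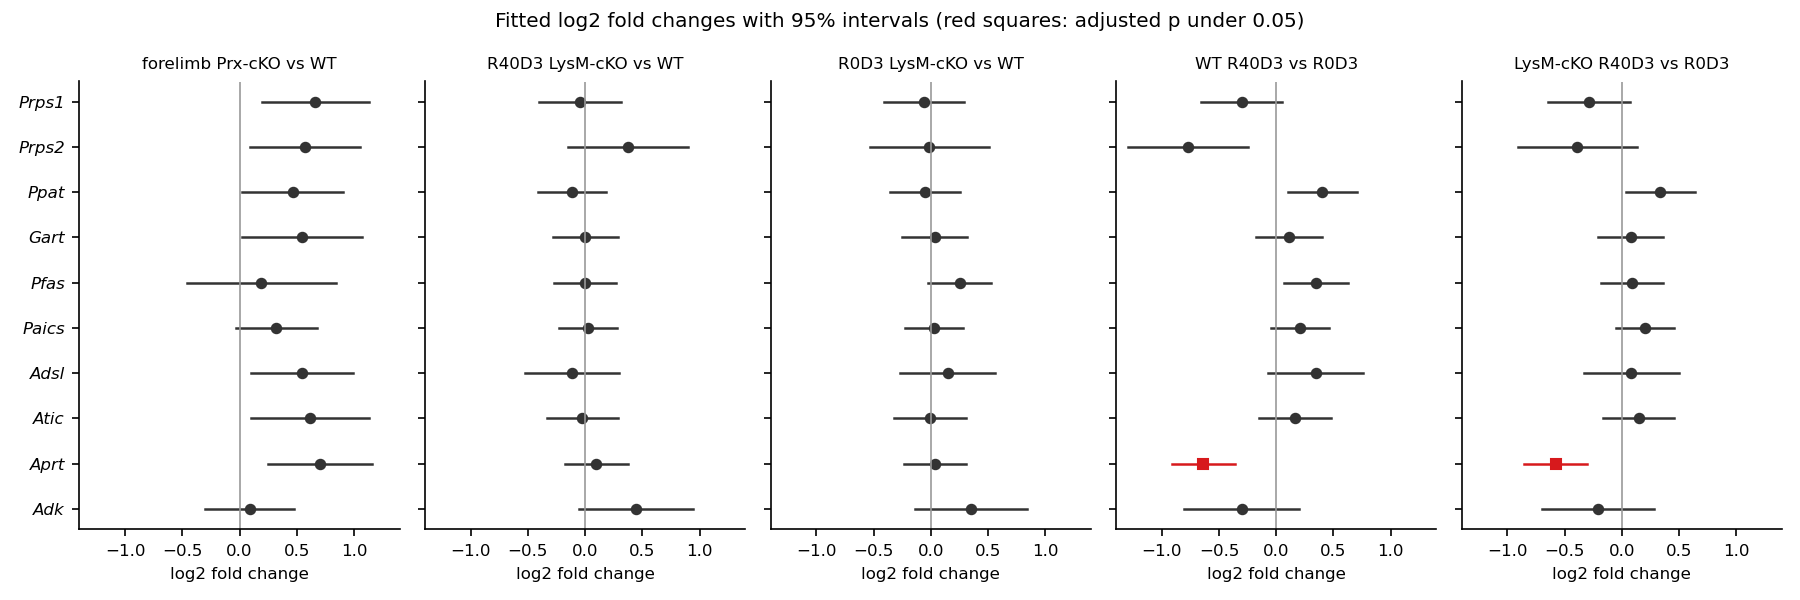
Fitted log2 fold changes (points) with 95% intervals (bars) of the 10 genes in the 5 comparisons, 1 panel each; a red square marks an adjusted p under 0.05. Aprt carries the only red squares, at -0.64 and -0.58 in the 2 panels of R40D3 against R0D3. All values are from the fit without a block for the replicate number.

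LysM-cKO cultures gave the same comparison in separate libraries. Aprt was at 95.7 and 121 CPM at R0D3 and at 71.0 and 74.3 CPM at R40D3 (0.669 of the R0D3 level, log2 -0.58, SE 0.12, adjusted p = 0.0233). Without the replicate block it was again the only gene of the 10 called, where 10.1% of 14030 genes were called and 3.15% were called as lower. The call was lost without R0D3 replicate 2 (log2 -0.39, adjusted p = 0.0929), R40D3 replicate 1 (0.0693) or R40D3 replicate 2 (0.0696), and in a fit of these 4 libraries alone (0.0916). Prps2 was at 157 and 118 CPM against 122 and 87.5 CPM, lower by a like amount within each replicate number, and the groups overlapped (log2 -0.39, SE 0.22, adjusted p = 0.347; 0.00679 with the replicate block). Prps1 was at 10.1 and 11.0 CPM against 8.89 and 8.38 CPM (log2 -0.29, adjusted p = 0.31), without overlap.

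Among the enzymes from Ppat to Atic in LysM-cKO, Ppat and Paics were higher at R40D3 without overlap, where 27.3% of all genes were. Ppat was at 15.9 and 19.8 CPM against 21.9 and 23.0 CPM (log2 0.34, SE 0.13, adjusted p = 0.165), and Paics at 122 and 143 CPM against 144 and 162 CPM (log2 0.20, SE 0.11, adjusted p = 0.31). The other 4 had fitted values from 0.08 to 0.15, and Gart, Pfas and Adsl moved in opposite directions in the 2 replicate numbers. Lower without overlap were Prps1 and Aprt, where 22.5% of all genes were. Adk was at 23.1 and 35.0 CPM against 22.7 and 27.5 CPM, with overlap (log2 -0.21, adjusted p = 0.612). Of the 10, 2 had an unadjusted p under 0.05, against 24% of all genes.

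Marker sums also differed between R0D3 and R40D3. The 8 cycling-cell markers summed to 372 and 491 CPM at R0D3 and to 266 and 243 CPM at R40D3 in WT, and to 467 and 944 against 277 and 449 CPM in LysM-cKO. The sums of the 9 osteoclast markers differed as given above, with 1 of them at 0 at R0D3. Within each replicate number, all 10 genes had the direction of the pooled comparison in WT. That follows from the lack of overlap between these groups for all 10 and adds nothing to it. The part of cycling cells and of osteoclast markers in the purine gene values was not tested. The genotype comparisons and the R40D3 comparisons share libraries, so their values are given side by side only.

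The 6 enzymes from Ppat to Atic were averaged into a mean profile across the 12 libraries, centred within each tissue. Each of the 10 genes was compared with that mean by the root mean square difference of log2 CPM. Adsl (0.068), Gart (0.069), Atic (0.075), Ppat (0.081) and Paics (0.087) lay closest among the 10 and Pfas a little farther (0.122), which follows in part from their being in the mean. The other 4 lay farther: Prps1 at 0.245, Adk at 0.280, Aprt at 0.355 and Prps2 at 0.420, beside a median of 0.260 over 8840 genes. The nearest genes outside the 10 were Ttll12 (0.042), a tubulin tyrosine ligase-like protein, Eif3c (0.059), a subunit of translation initiation factor 3, and Psmd2 (0.063), a subunit of the proteasome's regulatory particle. All 3 lay nearer than any of the 6 enzymes, which ranked from 13 (Adsl) to 311 (Pfas) among the 8840 genes.

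Enzymes around the pathway were read from 5 lists, written from general knowledge but with earlier results of these data known. Of 10 genes that supply one-carbon units and formyl groups, 8 had higher values in Prx-cKO forelimbs, none was called and 5 had an unadjusted p under 0.05, with a median log2 fold change of 0.56. Over all genes tested, 47.2% were higher, 10.5% had an unadjusted p under 0.05 and the median was -0.03. Mthfd2, the mitochondrial methylene-tetrahydrofolate dehydrogenase, gave 39.0 and 36.3 CPM in WT versus 64.6 and 76.3 CPM in Prx-cKO (log2 0.91, SE 0.17, adjusted p = 0.34). Shmt2, the mitochondrial serine hydroxymethyltransferase, was at 93.9 and 99.7 CPM against 138 and 154 CPM (log2 0.59, SE 0.15, adjusted p = 0.414). In WT cultures 1 of the 10 was called between R40D3 and R0D3, beside 16.9% of all genes: Mthfd1, the cytosolic enzyme that makes the formyl donor used by Gart and Atic (30.6 and 31.1 against 51.6 and 50.5 CPM, log2 0.73, adjusted p = 0.0108). In LysM-cKO cultures, where 10.1% of all genes were called, the 1 called was Shmt1, the cytosolic serine hydroxymethyltransferase (log2 0.63, adjusted p = 0.0462).

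The adenylate list held the enzymes after IMP and the adenylate kinases. In WT cultures 3 of 11 tested were called higher at R40D3 and 1 lower, where 16.9% of all genes were called and 5.52% were called as lower. Ak5, an adenylate kinase, rose from 2.04 and 2.11 to 9.99 and 11.8 CPM (log2 2.38, SE 0.34, adjusted p = 0.00425). In LysM-cKO, where 10.1% of all genes were called, 2 of 11 were called higher, among them Ak5 (log2 2.69, adjusted p = 0.00839). In the forelimb none of 12 was called. Ak1 gave 21.8 and 21.5 CPM in WT versus 42.3 and 52.2 CPM in Prx-cKO (log2 1.13, adjusted p = 0.332). In the same order of libraries, the 5 skeletal muscle markers summed to 235 and 235 CPM in WT and to 702 and 349 CPM in Prx-cKO. Their part in the Ak1 values was not tested.

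On the guanylate side, Impdh2 was the only gene of 8 called in the genotype comparisons of the cultures (log2 -1.73, adjusted p = 0.0386 at R40D3; log2 -1.81, adjusted p = 0.0323 at R0D3). At R40D3 Gda, guanine deaminase, gave 54.1 and 35.7 CPM in WT versus 78.6 and 70.9 CPM in LysM-cKO (log2 0.73, adjusted p = 0.648). Between R40D3 and R0D3 in WT, Gmpr, which converts GMP to IMP, was the 1 called of 8, beside 16.9% of all genes (log2 1.07, adjusted p = 0.041), and Hprt, the hypoxanthine and guanine counterpart of Aprt, was at 151 and 178 CPM at R0D3 and at 115 and 118 CPM at R40D3 (log2 -0.50, adjusted p = 0.107). Of 14 genes of purine breakdown and nucleoside handling, 1 was called in each genotype, beside 16.9% (WT) and 10.1% (LysM-cKO) of all genes, the equilibrative nucleoside transporter Slc29a1 (log2 0.91, adjusted p = 0.0054 in WT; log2 0.79, adjusted p = 0.0145 in LysM-cKO). None of the 3 tested genes associated with PRPP synthetase was called in any comparison. Prps1l3, the near copy of Prps1, was at 31.6 and 46.9 CPM in WT forelimbs and at 38.4 and 51.3 CPM in Prx-cKO (log2 0.19, SE 0.26, adjusted p = 0.837).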

How the data were processed

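The values the authors deposited are raw counts of reads per Ensembl gene, in separate tables for the forelimb and for each replicate number of the cultures. Per the labels' protocols, RNA was extracted with TRIzol and an mRNA kit was used for the libraries. The submitters' processing notes name GRCm38, FastQC 0.11.2, Trimmomatic 0.36, HISAT2 2.1.0 and DESeq2 1.12.4, without roles; the counting tool, its annotation and its use of strand are not given in the sources used here, so reads of overlapping or near-identical genes may be divided differently.

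Counts were fitted as deposited with edgeR 4.0.16 in R 4.3.3 (filterByExpr, TMM, quasi-likelihood test with legacy = FALSE, group means, two-sided, Benjamini-Hochberg adjustment over all 19987 forelimb or 14030 culture genes, calls under 0.05). Forelimb (4 libraries) and cultures (8 libraries) had a fit each. A standard error (SE) is the size of the log2 fold change over the square root of F. CPM uses TMM-scaled library sizes; log2 CPM has a prior count of 2. Alternatives were DESeq2 1.42.0, its size factors, no filter, legacy = TRUE, a replicate block, the compared libraries alone, and each library left out. The pipeline was tested on simulated counts.

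Deviations of same-numbered culture libraries correlated across genes in all 6 pairs of groups (r 0.343 to 0.609). This comes from the data and not from a stated batch. The fit reported throughout has no replicate block, so its culture calls, intervals and p-values leave this correlation out. The block was fitted only as an alternative. Gene positions and lengths come from GENCODE M21 (GRCm38) and promoter windows from RefSeq (GRCm38.p6); identity of near copies was measured with BLAST 2.17.0.

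The members and lists were chosen with earlier results of these data known. Named were all 10 members, Impdh2, genes starting within 1 kb on the opposite strand, up to 2 genes per list and comparison, and the 3 genes nearest in profile. Gm15964 and Prps1l3 were named because their reads may be shared with a member. A gene that the rule named is left out of the text.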

Additional observations from a re-analysis of the deposited data

Results flagged for a closer look

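Ppat was flagged because its genotype differences had opposite directions in the 2 tissues. Every Prx-cKO forelimb library was above every WT forelimb library (log2 fold change 0.463), as for 22.2% of all genes. Every LysM-cKO library was below every WT library at R40D3 (-0.117, SE 0.13), as for 18.9% of all genes. The share of all genes that met both was not taken, so the flag has no background to be read against. The difference between the 2 log2 fold changes of Ppat was not tested, since the tissues were fitted separately, and neither value passed the adjusted test. At R0D3 the Ppat groups overlapped (log2 fold change -0.05). Prps1 (0.66 and -0.05), Adsl (0.55 and -0.12) and Atic (0.62 and -0.02) also had fitted values of opposite sign in the forelimb and at R40D3, with overlapping groups at R40D3.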

How the results depend on the processing

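The 10 genes held at least 136 reads in every library, and each group held 2 libraries; which of these limits the calls was not tested. With the replicate number as a block, calls rose to 3977 genes and 5 of the 10 in WT R40D3 against R0D3, to 2983 and 2 in LysM-cKO, and to 30 genes and none of the 10 at R40D3 between genotypes. No other call of the 10 changed with the block; in the forelimb, where 1 pair correlated at r = 0.261 and shares only a number, it left 0 genes called. DESeq2 called 301 genes in the forelimb, 18 at R40D3 and 7 at R0D3 between genotypes, none of the 10 among them. In WT R40D3 against R0D3, DESeq2, its size factors and no filter each called 2 of the 10 (Aprt and Prps2). The 4 compared libraries alone called 3 (with Ppat). The fit without these changes called 1 of the 10 there, beside 16.9% of all genes. Shares of all genes under these alternatives are not given here. In LysM-cKO, the 4 compared libraries alone called 0 of the 10 and 533 genes. Between genotypes, the 4 compared libraries alone called 0 genes in each culture group. At R40D3 between genotypes, Gart and Pfas turned to 0.0108 and 0.00541 with no filter and to 0.00687 and 0.00204 in the 4 libraries alone. By value, 5 of 60 mean CPM values moved by more than 1 SD without TMM, and 44 of 60 levels per kb with merged exons.

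Leaving out 1 library at a time, called genes ranged from 0 to 603 in the forelimb, were 0 between genotypes in either culture group, and ranged from 689 to 1699 in WT and from 399 to 1317 in LysM-cKO between R40D3 and R0D3; calls among the 10 ranged from 0 to 2 and from 0 to 1. These fits leave a group with 1 library, assumed to vary like the others. Log2 fold changes changed sign in the forelimb for Pfas (-0.11 to 0.53) and Adk (-0.0241 to 0.17). At R40D3 between genotypes this held for Prps1 (-0.12 to 0.0303), Gart (-0.00420 to 0.0103), Pfas (-0.0274 to 0.0211), Paics (-0.0790 to 0.14), Adsl (-0.26 to 0.0309) and Atic (-0.20 to 0.14). At R0D3 it held for Prps1 (-0.16 to 0.0473), Prps2 (-0.25 to 0.17), Ppat (-0.22 to 0.0739), Gart (-0.14 to 0.17), Paics (-0.0896 to 0.11), Adsl (-0.14 to 0.36), Atic (-0.14 to 0.0924) and Aprt (-0.15 to 0.17). In LysM-cKO between R40D3 and R0D3 it held for Gart (-0.0874 to 0.26), Pfas (-0.00447 to 0.18), Adsl (-0.16 to 0.37), Atic (-0.0492 to 0.29), Adk (-0.49 to 0.13) and the median of the 10 (-0.12 to 0.22). None of the 10 changed sign in WT between R40D3 and R0D3, where the groups overlapped for none of them. The causes were not tested.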
